A study of Mus musculus with 48 samples.

Results

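Messenger RNA of adenosine receptors and of orphan receptors of the striatum was followed in 48 mice. The genes are the adenosine receptors Adora1, Adora2a and Adora2b, the orphan receptors Gpr6, Gpr52, Gpr83, Gpr149 and Gpr3, and the peptide receptor Mas1. They were taken by gene symbol from a table of 48795 genes. Of the 9 listed genes, 8 had a row under their symbol, and all 8 passed the filter on low counts. Gpr52 was not analysed here. The striatum was profiled by RNA-seq in 6 genotypes of 8 mice each, 4 female and 4 male, on a C57BL/6 background. Wild type (WT) mice, mice labelled Het (Q140) KI (called Q140 here) and mice lacking 1 or both Msh3 alleles (Msh3+/-, Msh3-/-) were profiled. The remaining 2 groups combined Q140 with loss of 1 Msh3 allele (Q140 x Msh3+/-) or of both (Q140 x Msh3-/-). The knock-in places an expanded CAG repeat in the mouse Htt gene, here on 1 allele, as a model of Huntington's disease. Msh3 encodes a DNA mismatch repair protein. The age is 12 months in the labels and 6 months in their extraction text, so it is uncertain.

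The receptors described here are G protein-coupled receptors. Adenosine, a breakdown product of ATP, lowers cyclic AMP (cAMP) through Adora1, and raises it through Adora2a and Adora2b. In the striatum Adora2a is a hallmark of the spiny projection neurons of the indirect pathway, where it opposes the dopamine receptor Drd2. Gpr6 is enriched in the same neurons, and Gpr6 and its relatives Gpr3 and Gpr12 raise cAMP without an added ligand. Gpr83 has been linked to peptides cut from the proSAAS precursor, which Pcsk1n encodes, and Mas1 is known as a receptor for the angiotensin fragment angiotensin-(1-7). Gpr149 remains an orphan whose signalling is little described.

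Library totals ran from 38.9 to 60.9 M counts (M, 1000000 counts), with a median of 47.3 M. Msh3 RNA was higher in the libraries labelled as lacking Msh3 alleles: WT, Msh3+/- and Msh3-/- mice had means of 29, 73.9 and 122 CPM (counts per 1000000 counts, scaled by the TMM method). With the Q140 allele the means were 30.5, 74.9 and 116 CPM in the same order, so the counts separate the Msh3 genotypes but do not show a loss of RNA. Mean Htt RNA lay between 213 and 229 CPM in all 6 genotypes. A total of 4 libraries stood apart on the leading component of the residual variation (2 Msh3-/-, 1 Q140 x Msh3+/- and 1 Q140 x Msh3-/-), and results that change without them are given with that value. Cell type marker genes were checked as sets, and no marker was at 0 counts over a genotype. The 6 indirect-pathway markers (Drd2 and Penk among them) summed to 2180 to 2420 CPM in WT and 1030 to 1260 CPM in Q140 mice. Such a sum mostly follows the most abundant genes of a list. The median log2 fold change over the 6 markers was -0.43 in Q140 minus WT. Cortical neuron markers, listed to look for cortex in the dissection, summed to 974 to 1110 CPM in WT and 700 to 887 CPM in Q140 mice. Of these 8 markers 2 were called higher and 1 lower in Q140 mice by the test given below. Whether the sum follows the amount of cortex was not tested.

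Upstream sequence is shown for 3 genes that were each called lower in Q140 striatum and for Gpr3, the relative of Gpr6 that did not pass the test. These are the 250 bases before the annotated start from RefSeq (GRCm38.p6), 5′ to 3′ on the gene's own strand. An entry was matched for 6 of the 8 genes. Capitals mark matches, on either strand, to the motifs searched: the full cAMP response element TGACGTCA, its shorter core TGACG, which reads CGTCA on the other strand, the GC box GGGCGG, the TATA box TATAAA and the Egr-type site GCGTGGGCG.
Gpr6 promoter, chr10:41072291-41072540, minus strand: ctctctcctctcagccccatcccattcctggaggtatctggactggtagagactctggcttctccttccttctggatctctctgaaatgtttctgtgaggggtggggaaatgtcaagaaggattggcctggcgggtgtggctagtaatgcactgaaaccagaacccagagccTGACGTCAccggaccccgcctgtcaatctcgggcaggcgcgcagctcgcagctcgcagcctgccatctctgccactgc
Gpr83 promoter, chr9:14859960-14860209, plus strand: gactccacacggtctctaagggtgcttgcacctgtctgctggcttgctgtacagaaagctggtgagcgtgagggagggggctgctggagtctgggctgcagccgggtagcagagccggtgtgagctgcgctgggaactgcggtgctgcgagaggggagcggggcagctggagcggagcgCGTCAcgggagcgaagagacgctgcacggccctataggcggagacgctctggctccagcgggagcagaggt
Mas1 promoter, chr17:12868144-12868393, minus strand: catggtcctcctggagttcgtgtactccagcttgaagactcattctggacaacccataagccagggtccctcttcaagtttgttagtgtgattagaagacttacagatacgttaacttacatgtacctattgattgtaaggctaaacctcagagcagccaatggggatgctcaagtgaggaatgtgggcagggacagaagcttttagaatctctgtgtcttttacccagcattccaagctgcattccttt
Gpr3 promoter, chr4:133212537-133212786, minus strand: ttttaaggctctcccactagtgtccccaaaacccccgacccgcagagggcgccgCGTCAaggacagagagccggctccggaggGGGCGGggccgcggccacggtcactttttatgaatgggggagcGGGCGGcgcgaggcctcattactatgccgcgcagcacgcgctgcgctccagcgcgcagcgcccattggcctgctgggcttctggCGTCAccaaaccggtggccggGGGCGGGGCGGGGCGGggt
The Gpr6 stretch held TGACGTCA once, and its 2 matches to TGACG are this palindrome read on each strand. TGACGTCA was present in 1.5% of 32817 promoter stretches of this length. Gpr83 had 1 match to TGACG, and Gpr3 had 2 matches to TGACG with 5 to GGGCGG, some overlapping. The core TGACG was in 17.7% of all stretches and GGGCGG in 32.7%. The Mas1 stretch held none of the 5 motifs, of which TATAAA was in 12.4% and GCGTGGGCG in 0.5% of all stretches. Of the entries not printed, Adora1 (called lower) had 3 matches to the GC box in the entry without exon bases and 0 in the entry inside exons. Adora2b (not called) had 6. The letters are a description of these windows only. Between coding sequences of the 8 genes, Adora3 and Gpr12, the longest identical run was 20 bases (Adora2a and Gpr83), and that of Gpr6 with Gpr3 was 14 bases.

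Levels of different genes were set side by side on the deposited FPKM scale, which accounts for gene length. In WT striatum Adora2a stood highest at 157 ± 16 FPKM (SD, n = 8), followed by Gpr6 at 52 ± 3.22 and Adora1 at 33.6 ± 1.16 FPKM. Gpr83 had 28.1 ± 2.28 FPKM, and the other members were far below it. Gpr149 (2.89 ± 0.442 FPKM) and Mas1 (2.53 ± 0.555 FPKM) lay within each other's SD, and so did Gpr3 (1.55 ± 0.429 FPKM) and Adora2b (1.35 ± 0.206 FPKM). In Q140 mice Adora2a was still highest at 82 ± 7.85 FPKM, while Gpr6 at 32.5 ± 2.15 FPKM lay within the SD of Adora1 at 32.2 ± 1.44 FPKM. Mas1 had the lowest level of the 8 in Q140 mice, 0.728 ± 0.14 FPKM, below Adora2b at 1.33 ± 0.187 FPKM.

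The Q140 effect with both Msh3 alleles present was taken from Q140 minus WT. In this comparison 5 of the 8 receptors fell (Adora2a, Gpr6, Gpr83, Mas1 and Adora1), 1 rose (Gpr149), and Adora2b and Gpr3 did not pass the test. A gene was called changed at an adjusted p below 0.05 in edgeR's quasi-likelihood test over all 19714 genes, with Benjamini-Hochberg adjustment, and adjusted p-values below come from it where no other test is named. In Q140 minus WT 33% of all tested genes were called, 3358 higher and 3148 lower. Scaled to total counts in place of TMM the split was 5773 higher and 2064 lower, and the members called were 5, without Adora1. The median log2 fold change was -0.44 over the 8 receptors and 0 over all genes tested. In whole striatum, fewer cells of a type and less RNA per cell cannot be told apart.

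Adora2a (GRCm38 chromosome 10, 75316877 to 75334784, plus strand) is the adenosine receptor of indirect-pathway neurons. It had a lowest, median and highest level of 360, 408 and 473 CPM in WT mice. In Q140 mice these were 164, 208 and 224 CPM, so every Q140 mouse lay below every WT mouse. How often groups separate in this way over all genes was not counted, for this or the later comparisons of single mice. The fitted level in Q140 was 0.499 of that in WT (log2 fold change -1, SE 0.0648, adjusted p = 5.19e-17).

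Gpr6 (chromosome 10, 41069977 to 41072285, minus strand), the constitutively active orphan receptor, ran from 84.8 to 102 CPM in WT, with a median of 94.3 CPM. In Q140 mice it ran from 51 to 60 CPM with a median of 57 CPM, and the groups did not overlap. Its log2 fold change was -0.75 (SE 0.0494, adjusted p = 9.86e-18). Gpr83 (chromosome 9, 14860210 to 14870789, plus strand) ran from 127 to 162 CPM in WT and from 75.8 to 104 CPM in Q140 mice, with medians of 147 and 82.8 CPM. Here too all 8 Q140 mice were below all WT mice (log2 fold change -0.78, SE 0.0652, adjusted p = 1.82e-13).

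Mas1 (chromosome 17, 12841079 to 12868143, minus strand) showed the largest relative fall of the 8 receptors. It ran from 5.09 to 9.36 CPM in WT, median 6.29 CPM, on 222 to 562 counts a mouse. In Q140 mice it ran from 1.32 to 2.28 CPM, median 1.85 CPM, on 62 to 120 counts. The lowest WT mouse was above the highest Q140 mouse. The log2 fold change was -1.85 (SE 0.122, adjusted p = 5.32e-18), and it was -1.02 on the log2(FPKM + 1) scale, where the added 1 is larger than the Q140 level itself. The antisense gene Airn overlaps Mas1 on the other strand without shared exon bases.

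Adora1 (chromosome 1, 134199223 to 134235431, minus strand), the receptor that lowers cAMP, changed least among the receptors called. Its lowest, median and highest levels were 186, 201 and 209 CPM in WT and 163, 181 and 199 CPM in Q140 mice, and the ranges overlapped, with 6 Q140 mice below all WT mice. The log2 fold change was -0.13 (SE 0.0379, adjusted p = 0.0053). It did not pass the test when libraries were scaled to total counts (-0.06, adjusted p = 0.174) or in limma on log2(FPKM + 0.1) (-0.06, adjusted p = 0.182), nor in female mice alone (-0.10, adjusted p = 0.191). Adora1 shares 1162 exon bases with Mybph on the opposite strand; Mybph had at most 67 counts in any library, against at least 7234 for Adora1.

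Gpr149 (chromosome 3, 62529077 to 62605140, minus strand) was the 1 receptor of the set that rose. It had 9.96 to 15.3 CPM in WT, median 12.8 CPM, and 13.1 to 19.4 CPM in Q140 mice, median 17.4 CPM. The ranges overlapped, and 6 Q140 mice lay above all WT mice. The log2 fold change was 0.42 (SE 0.0854, adjusted p = 9.95e-05). In female mice alone it was 0.46 with an adjusted p of 0.051.

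The other adenosine receptor, Adora2b (chromosome 11, 62248984 to 62266453, plus strand), ran from 2.04 to 3.12 CPM in WT and from 1.89 to 2.95 CPM in Q140 mice. Its log2 fold change was -0.08 with a 95% interval of -0.32 to 0.16 (adjusted p = 0.658). Gpr3 (chromosome 4, 133209340 to 133212536, minus strand), the relative of Gpr6, ran from 2.99 to 6.21 CPM in WT and from 3.72 to 5.82 CPM in Q140 mice. Its log2 fold change was 0.15 with a 95% interval of -0.19 to 0.48 (adjusted p = 0.534). Neither interval reaches the size of the Adora2a or Gpr6 fall. Gpr3 shares 204 exon bases with Cd164l2 on the opposite strand, which had 97 to 235 counts a library against 127 to 407 for Gpr3, and the strand setting of the counting is not given in the sources used here, so reads of the pair may be mixed.

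**Figure D1:**
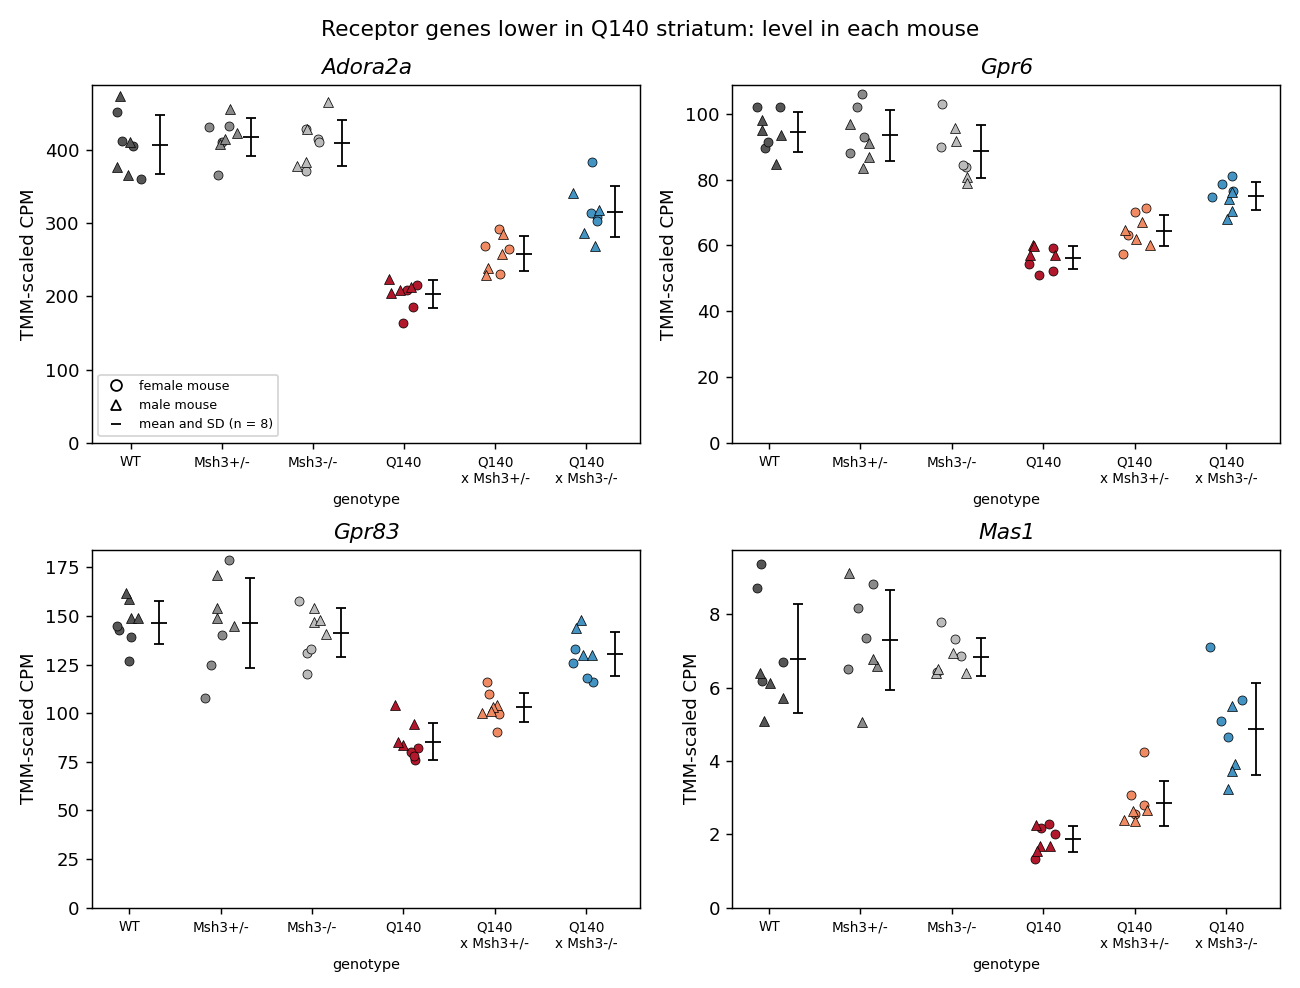
Level of Adora2a, Gpr6, Gpr83 and Mas1 in each mouse (vertical axis, TMM-scaled CPM from 0) for the 6 genotypes (horizontal axis); circles are female and triangles male mice, and bars give the mean and SD of 8 mice. In all 4 panels the Q140 mice lie below every WT mouse, and the means of Q140 x Msh3+/- and Q140 x Msh3-/- mice lie between those of Q140 and WT. All 4 genes had been called lower in Q140 minus WT, and the share of all genes with such a separation was not counted.

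Loss of Msh3 without the Q140 allele was examined in each Msh3 genotype against WT; the 2 comparisons share the WT libraries. None of the 8 receptors was called in either comparison by edgeR, none had an unadjusted p below 0.05, and DESeq2 also called 0. Over all tested genes 0.0457% were called with both alleles lost and 0.0101% with 1 lost. An unadjusted p below 0.05 in edgeR was found for 1187 and 937 of the 19714 genes in the same order. Adora2a had a log2 fold change of 0.01 in Msh3-/- mice (95% interval -0.12 to 0.14) and 0.04 in Msh3+/- mice (-0.09 to 0.17). For Mas1 these were 0.02 (-0.21 to 0.25) and 0.11 (-0.11 to 0.34). Mean Adora2a was 407 ± 40.1 CPM for WT (SD, n = 8), 418 ± 25.8 for Msh3+/- and 410 ± 31.4 for Msh3-/-.

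The Q140 crosses were then set against Q140 mice, to see how receptor levels differed with 1 or both Msh3 alleles lost. With both lost, 5 of 8 receptors were higher than in Q140 mice and none lower: Adora2a, Gpr6, Gpr83, Mas1 and Adora1. The share called over all tested genes was 16.3%. With 1 lost, 4 of 8 were higher and none lower, the same genes without Adora1, where 1.32% of all genes were called. These comparisons share the 8 Q140 libraries with each other and with Q140 minus WT, so they are not independent of each other.

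Adora2a ran from 269 to 383 CPM in Q140 x Msh3-/- mice, with a median of 311 CPM, and from 229 to 292 CPM in Q140 x Msh3+/- mice, with a median of 261 CPM. All mice of both crosses lay above all Q140 mice. The log2 fold change against Q140 was 0.64 (SE 0.0645, adjusted p = 2.99e-10) with both Msh3 alleles lost and 0.35 (SE 0.0644, adjusted p = 0.00154) with 1 lost.

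Gpr6 ran from 68.1 to 81.2 CPM in Q140 x Msh3-/- and from 57.5 to 71.5 CPM in Q140 x Msh3+/- mice, with medians of 75.5 and 64.1 CPM. All Q140 x Msh3-/- mice and 7 of the Q140 x Msh3+/- mice lay above all Q140 mice. Its log2 fold changes against Q140 were 0.41 (SE 0.0494, adjusted p = 8.31e-09) and 0.20 (SE 0.0495, adjusted p = 0.0264). The smaller value was not called without the 4 libraries whose names carry other prefixes than the rest (0.18, adjusted p = 0.0935). These libraries were all from WT females or Q140 mice.

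Gpr83 ran from 116 to 148 CPM in Q140 x Msh3-/- mice, median 130 CPM, all above the Q140 mice. With 1 Msh3 allele lost it ran from 90.5 to 116 CPM, median 102 CPM, and overlapped with Q140. The log2 fold changes against Q140 were 0.61 (SE 0.0651, adjusted p = 9.49e-10) and 0.27 (SE 0.0651, adjusted p = 0.0184). The second value was 0.24 (adjusted p = 0.0837) without the 4 libraries apart on the leading residual component, and 0.26 (adjusted p = 0.0797) without the 4 libraries of another name prefix.

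Mas1 ran from 3.24 to 7.11 CPM in Q140 x Msh3-/- mice, median 4.88 CPM, and from 2.37 to 4.25 CPM in Q140 x Msh3+/- mice, median 2.66 CPM. No mouse of either cross overlapped with the Q140 mice. The log2 fold changes against Q140 were 1.37 (SE 0.123, adjusted p = 1.93e-12) and 0.60 (SE 0.125, adjusted p = 0.00453), and on the log2(FPKM + 1) scale 0.71 and 0.29. Adora1 was 0.21 higher in Q140 x Msh3-/- than in Q140 mice on the log2 scale (SE 0.0379, adjusted p = 5.16e-05), with 7 of 8 mice above all Q140 mice, and in male mice alone the difference was 0.17 (adjusted p = 0.0733). With 1 allele lost its difference was 0.08 (95% interval 0.01 to 0.16, adjusted p = 0.309).

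Gpr149 behaved differently. Its level was 13.6 to 20.4 CPM in Q140 x Msh3-/- mice, median 18.5 CPM, and 14.8 to 21.5 CPM in Q140 x Msh3+/- mice, median 19.3 CPM. Both ranges overlapped with Q140. The log2 fold changes against Q140 were 0.06 (95% interval -0.11 to 0.23) and 0.14 (-0.03 to 0.31), and neither was called. Adora2b and Gpr3 were not called in either comparison.

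With both sexes the heterozygous loss gave 4 calls, but in female mice alone 2 (Adora2a and Mas1) and in male mice alone 0. Over all genes the calls were 260, 199 and 1 in the same order. In males the log2 fold changes of Q140 x Msh3+/- minus Q140 were 0.26 for Adora2a, 0.12 for Gpr6, 0.15 for Gpr83 and 0.5 for Mas1, each with an adjusted p of 1. All 4 were positive, on 4 mice a group.

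The crosses were also compared with each other. Here (Q140 x Msh3-/- minus Q140 x Msh3+/-) 4 of 8 receptors were higher with both Msh3 alleles lost and none lower, where 3.23% of all genes were called. The log2 fold changes were 0.29 for Adora2a (SE 0.0642, adjusted p = 0.00559), 0.22 for Gpr6 (SE 0.0493, adjusted p = 0.00549), 0.34 for Gpr83 (SE 0.0648, adjusted p = 0.000783) and 0.77 for Mas1 (SE 0.118, adjusted p = 2e-05). Single mice of the groups overlapped for all 4 genes: 6, 6, 7 and 5 of the 8 Q140 x Msh3-/- mice lay above all Q140 x Msh3+/- mice. The order of Adora2a, Gpr6, Gpr83 and Mas1 levels was thus Q140, Q140 x Msh3+/-, Q140 x Msh3-/- from low to high, with each step called in the fit of both sexes. In female mice alone 1 receptor was called (Mas1), among 127 genes in all, and in male mice alone 2 (Gpr83 and Mas1), among 84. For Adora1 the last step was 0.13 with an adjusted p of 0.0524, and DESeq2 called it (0.13, adjusted p = 0.0403). On the log2(FPKM + 1) scale the Mas1 difference between the crosses was 0.42.

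Each cross was compared with its own Msh3 background, which gives the Q140 effect with 1 or no Msh3 allele. With 1 allele (Q140 x Msh3+/- minus Msh3+/-) 4 receptors were lower (Adora2a, Gpr6, Gpr83, Mas1) and Gpr149 was higher, where 21.5% of all genes were called. With none (Q140 x Msh3-/- minus Msh3-/-) 3 were lower (Adora2a, Gpr6, Mas1) and Gpr149 was higher, where 7.86% of all genes were called. The fall of Adora2a was -0.69 with 1 Msh3 allele (SE 0.0644, adjusted p = 1.15e-11) and -0.38 with none (SE 0.0642, adjusted p = 7.37e-05). Mas1 fell by 1.36 (SE 0.117, adjusted p = 1.83e-13) and by 0.50 (SE 0.114, adjusted p = 0.00246) in the same order on the log2 scale. On the log2(FPKM + 1) scale the value with 1 Msh3 allele was -0.82.

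Gpr6 fell by 0.53 on the log2 scale with 1 Msh3 allele (SE 0.0492, adjusted p = 2.11e-12) and by 0.24 with none (SE 0.0491, adjusted p = 0.000752). Gpr83 fell by 0.51 with 1 (SE 0.0648, adjusted p = 3.91e-08). With none its difference was -0.12 (95% interval -0.25 to 0.01, adjusted p = 0.306). Gpr149 was higher by 0.61 (SE 0.0855, adjusted p = 1.9e-07) and by 0.57 (SE 0.0859, adjusted p = 7.19e-06). In female mice alone, where 208 genes were called in all, no receptor was called in Q140 x Msh3-/- minus Msh3-/-. Adora2a had -0.31 there (adjusted p = 0.105) and Mas1 -0.33 (adjusted p = 0.353).

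**Figure D2:**
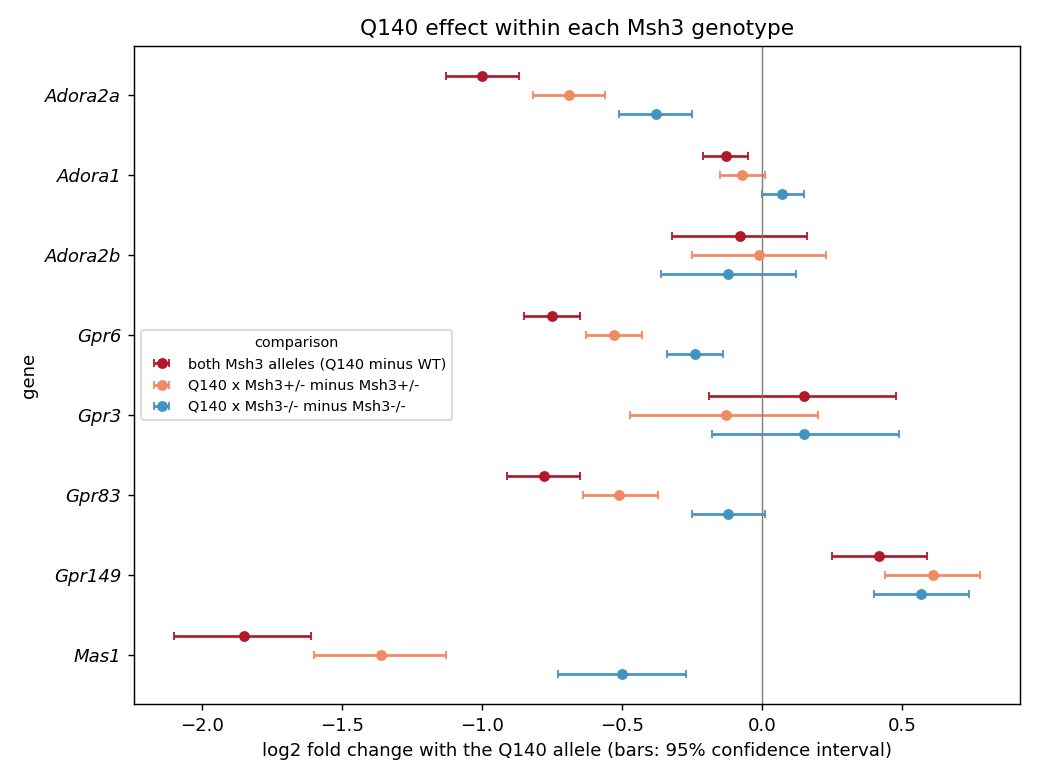
Log2 fold change with the Q140 allele (horizontal axis) for each receptor (vertical axis), with 95% confidence intervals, for mice with both Msh3 alleles (Q140 minus WT), with 1 (Q140 x Msh3+/- minus Msh3+/-) and with none (Q140 x Msh3-/- minus Msh3-/-). For Mas1 the value goes from -1.85 through -1.36 to -0.50, and for Adora2a from -1 through -0.69 to -0.38, while Gpr149 stays between 0.42 and 0.61.

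Whether the Q140 effect differed between Msh3 genotypes was tested directly as an interaction. For loss of both alleles, 5 of 8 receptors had an interaction past the threshold, all positive, where 6.15% of all genes were called. The interaction was 1.35 for Mas1 (SE 0.166, adjusted p = 8.85e-08), 0.66 for Gpr83 (SE 0.0916, adjusted p = 1.86e-06) and 0.63 for Adora2a (SE 0.0908, adjusted p = 4.51e-06). For Gpr6 it was 0.51 (SE 0.0695, adjusted p = 9.7e-07). Adora1 had 0.20 (SE 0.0536, adjusted p = 0.0119), which passed the threshold in 7 of 12 alternatives. It was not called with total-count scaling (0.15, adjusted p = 0.0516), in limma on log2(FPKM + 0.1) (0.15, adjusted p = 0.0599) or log2(FPKM + 1) (0.15, adjusted p = 0.0595), in females alone (0.2, adjusted p = 0.189) or in males alone (0.2, adjusted p = 0.306). In male mice alone 3 receptors were called (Gpr6, Gpr83 and Mas1), among 114 genes in all, with Adora2a at 0.49 (adjusted p = 0.0721). Mas1's interaction was 0.68 on the log2(FPKM + 1) scale.

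The interaction of Gpr149 was 0.15 with a 95% interval of -0.09 to 0.39 (adjusted p = 0.555). For Adora2b it was -0.04 (-0.38 to 0.30) and for Gpr3 0.01 (-0.47 to 0.48). For loss of 1 allele no receptor had an interaction past the threshold in edgeR or in DESeq2, where edgeR called 0.0152% of all genes. An unadjusted p below 0.05 in edgeR was found for 4 receptors, and for 1791 of all 19714 genes. The 4 receptors were Adora2a at 0.31 (95% interval 0.13 to 0.50), Gpr6 at 0.21 (0.07 to 0.35), Gpr83 at 0.28 (0.09 to 0.46) and Mas1 at 0.49 (0.15 to 0.83), with adjusted p from 0.19 to 0.322.

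The distance that remained to WT was taken from Q140 x Msh3-/- minus WT, where 6.28% of all genes were called. Adora2a, Gpr6 and Mas1 were lower and Gpr149 higher. Adora2a was at 0.775 of WT (log2 fold change -0.37, SE 0.0642, adjusted p = 1e-04), with 7 of 8 mice below all WT mice. Gpr6 was at 0.793 of WT (-0.33, SE 0.049, adjusted p = 2.89e-06), with all 8 mice below all WT mice. Mas1 was at 0.715 of WT (-0.48, SE 0.114, adjusted p = 0.00365), with 4 of 8 mice below all WT mice; in male mice alone it had -0.5 (adjusted p = 0.0765), and on the log2(FPKM + 1) scale -0.31. Gpr149 was at 1.39 of WT (0.48, SE 0.0854, adjusted p = 0.000117). Gpr83 had -0.17 (adjusted p = 0.123), and -0.17 with an adjusted p of 0.0122 when only the libraries of the comparison were fitted. Adora1 had 0.08 (adjusted p = 0.262), and 0.11 (adjusted p = 0.0454) with total-count scaling. In female mice alone 1 receptor was called, Gpr6, among 158 genes in all.

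**Figure D3:**
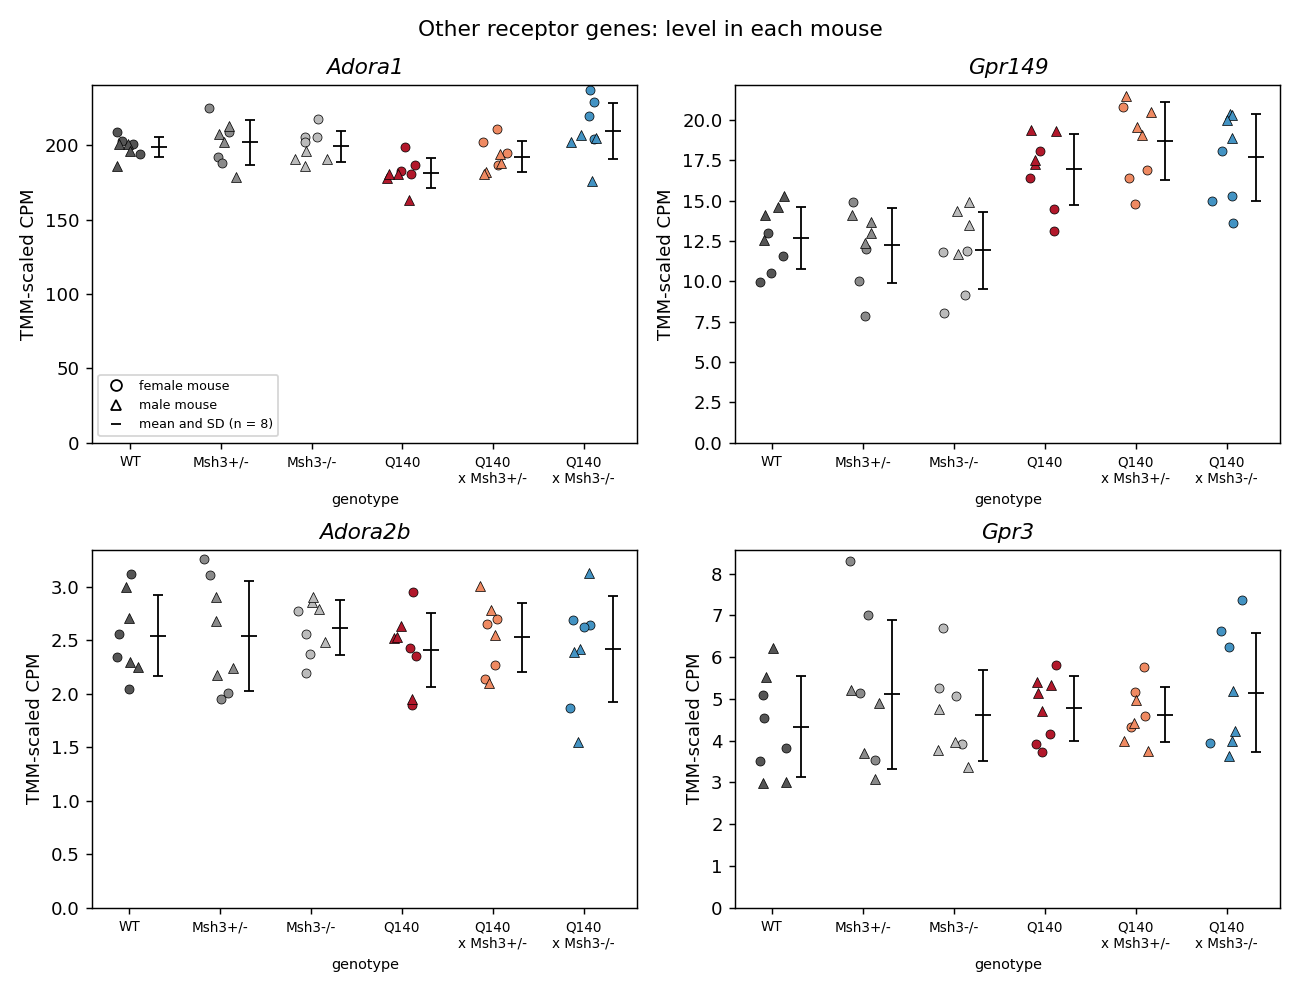
Level of Adora1, Gpr149, Adora2b and Gpr3 in each mouse (vertical axis, TMM-scaled CPM from 0) for the 6 genotypes (horizontal axis), with the symbols of the other plot of levels by mouse. Mean Gpr149 is 17 to 18.7 CPM in the 3 genotypes with the Q140 allele and 11.9 to 12.7 CPM in the 3 without it, and Adora2b and Gpr3 show no separation of the genotypes.

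Sex was a term of the fit, and its estimate over all genotypes was looked at after the data had been seen. Between males and females 4 of 8 receptors differed, where 4.26% of all genes were called. Gpr149 was higher in males by 0.30 on the log2 scale (SE 0.0493, adjusted p = 8.72e-05), with a higher male mean in 6 of 6 genotypes. Gpr83 was higher in males by 0.13 (SE 0.0374, adjusted p = 0.0268), in 5 of 6 genotypes. This difference had an adjusted p of 0.054 with no filter on low counts and 0.0656 without the 4 libraries of another name prefix.

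Mas1 fell by 0.27 on the log2 scale from females to males (SE 0.0673, adjusted p = 0.0122) and Adora1 fell by 0.09 (SE 0.0219, adjusted p = 0.00955), each with a lower male mean in 6 of 6 genotypes. On the log2(FPKM + 1) scale the Mas1 difference was -0.16. In WT mice mean Gpr149 was 11.3 ± 1.34 CPM in females and 14.2 ± 1.14 CPM in males, and mean Mas1 was 7.75 ± 1.54 and 5.83 ± 0.566 CPM (SD, n = 4 each). Adora2a differed by 0.01 between the sexes (95% interval -0.07 to 0.08). The sex difference of the Q140 effect itself was past the threshold for 0 of 8 receptors and 0% of all genes in edgeR, and DESeq2 called 0. An unadjusted p below 0.05 in edgeR was found for 0 receptors and for 658 of the 19714 genes. For Mas1 the sex difference of the Q140 effect was 0.29 with a 95% interval of -0.20 to 0.79.

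**Figure D4:**
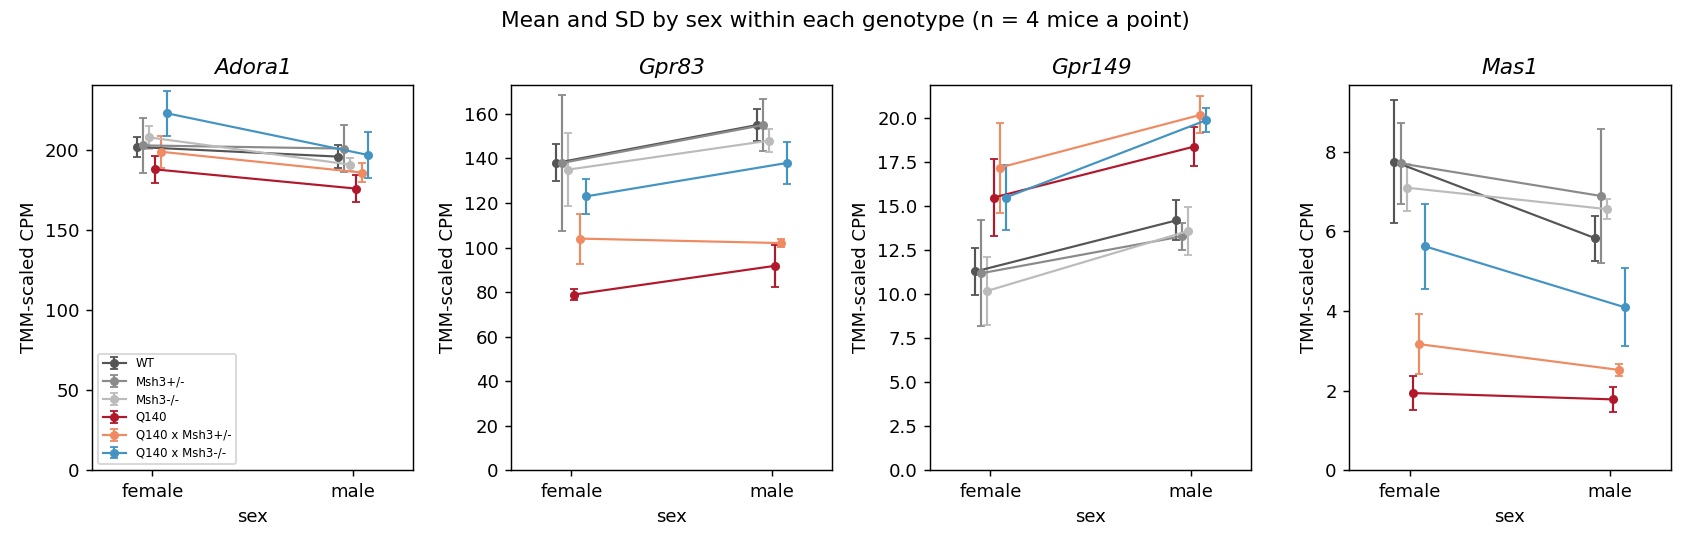
Mean and SD of Adora1, Gpr83, Gpr149 and Mas1 (vertical axis, TMM-scaled CPM from 0) in female and male mice (horizontal axis), 4 mice a point, with a line for each genotype. Every Gpr149 line rises from females to males, and every Mas1 line falls.

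The genes around these receptors were described as lists, each by its count, to be read against the 33% of all genes called in Q140 minus WT (17% higher and 16% lower). The lists were chosen with earlier results of these data known, so a count above that share is a description and not a test. Of 8 other receptors of spiny projection neurons, 7 were lower and none higher in Q140 than in WT mice, with a median log2 fold change of -0.72. Among them were the cannabinoid receptor gene Cnr1 (-1.05, SE 0.0839, adjusted p = 1.04e-13), the muscarinic receptor gene Chrm4 (-0.79, SE 0.0443, adjusted p = 1.45e-20), Drd2 (-0.73, SE 0.0428, adjusted p = 7.64e-20) and the serotonin receptor gene Htr4 (-0.72, SE 0.119, adjusted p = 2.84e-06). These 4 genes were higher in Q140 x Msh3-/- than in Q140 mice, by 0.42, 0.54, 0.43 and 0.69. Drd2 and Chrm4 are counted again among the pathway markers below.

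A list of 29 genes covered the path from the receptors to cAMP and steps after it, with phosphodiesterases and protein kinase A subunits. Of these, 8 were higher and 12 lower in Q140 mice. Among those higher were Pde4d (0.47, SE 0.0509, adjusted p = 6.73e-11) and the kinase subunit gene Prkar1b (0.30, SE 0.0382, adjusted p = 5.12e-09). Those most lowered were Pde10a, the striatal phosphodiesterase that breaks down cyclic nucleotides (-0.98, SE 0.0457, adjusted p = 1.82e-23), and Adcy5, the main striatal adenylyl cyclase (-0.83, SE 0.0392, adjusted p = 2.57e-23). Ppp1r1b, which encodes the phosphatase inhibitor DARPP-32, fell by 0.77 and Pde1b by 0.60 on the log2 scale (adjusted p = 2.29e-21 and 8.79e-17). Adcy5 was 0.52 higher in Q140 x Msh3-/- than in Q140 mice (SE 0.0391, adjusted p = 1.23e-14) and had -0.32 in Q140 x Msh3-/- minus Msh3-/- (SE 0.039, adjusted p = 6.86e-08). Over the list 11 genes were higher and 6 lower in Q140 x Msh3-/- minus Q140, where 8.75% of all genes were higher and 7.57% lower.

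Of 22 enzyme, transporter and receptor genes that handle adenosine, 1 was higher and 5 lower in Q140 mice, with a median of -0.10. The share called was near that over all genes. Entpd1, an ectoenzyme that degrades extracellular ATP, had -0.36 (SE 0.0544, adjusted p = 4.74e-07), and the AMP deaminase genes Ampd2 and Ampd3 had -0.27 and -0.25 (adjusted p = 1.01e-08 and 7.54e-08). Enpp1, another ectoenzyme acting on ATP, was higher by 0.34 (SE 0.0758, adjusted p = 0.000348). The transporter gene Slc29a1 was also lower (-0.14, SE 0.0495, adjusted p = 0.0291). So was Acpp (-1.94, SE 0.535, adjusted p = 0.00342), on very low counts (mean log2 CPM -2.54). Nt5e, which makes adenosine from AMP outside the cell, had -0.05 (adjusted p = 0.614), and Adk, which phosphorylates adenosine, had 0.09 (adjusted p = 0.0817). Adora3, the remaining adenosine receptor gene, had -0.15 (SE 0.177, adjusted p = 0.553).

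Of 40 other class A orphan receptors tested, 10 were higher and 10 lower in Q140 mice, with a median of -0.04. Gpr139 fell by 1.14 (SE 0.139, adjusted p = 1.1e-08) and Gpr153 by 0.58 (SE 0.0726, adjusted p = 6.01e-09) on the log2 scale. Gpr101 was higher by 0.67 (SE 0.119, adjusted p = 1.76e-05). On the Msh3-/- background Gpr101 was higher with Q140 by 0.57 (adjusted p = 0.00151), as Gpr149 was. Gpr12, the third receptor of the Gpr3 and Gpr6 family, was among those lower (-0.28, SE 0.059, adjusted p = 0.000131).

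Of 15 genes of the angiotensin system and Mas-related receptors, 2 were higher and 1 lower in Q140 mice. Ace, the angiotensin-converting enzyme, had -0.84 (SE 0.0882, adjusted p = 2.14e-10), and was 0.65 higher in Q140 x Msh3-/- than in Q140 mice (adjusted p = 3.65e-07). The peptidase genes Lnpep and Nln were higher by 0.18 and 0.16 (adjusted p = 0.000692 and 0.000328). Around the Gpr83 peptide precursor 2 of 4 tested genes were higher and 1 lower: the prohormone convertase genes Pcsk1 at 0.74 (SE 0.144, adjusted p = 7.2e-05) and Pcsk2 at -0.25 (SE 0.0356, adjusted p = 1.12e-07), and Pcsk1n at 0.23 (SE 0.0857, adjusted p = 0.0361).

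Cell type markers were counted in the same way, beside 17% of all genes higher and 16% lower in Q140 minus WT. Of 6 indirect-pathway markers 5 were lower and none higher in Q140 mice, with a median of -0.43, and of 8 direct-pathway markers 3 were higher and 4 lower. Of 8 markers each, 8 endothelial and mural, 5 astrocyte, 5 microglia, 5 interneuron and 3 oligodendrocyte markers were lower and none higher. Of 8 cortical neuron markers 2 were higher and 1 lower, and of 7 choroid plexus and ependymal markers 1 was lower. The calls in either direction among the oligodendrocyte and cortical lists, 3 of 8 each, were near the 33% over all genes.

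In the cross with both Msh3 alleles lost, set against Q140 mice, 6 of 6 indirect-pathway and 4 of 8 direct-pathway markers were higher and none lower, where 8.75% of all genes were higher. Of 8 markers each, 2 cortical neuron, 2 endothelial and mural, 1 astrocyte, 1 microglia and 1 interneuron marker were higher, and 0 oligodendrocyte markers; none of these lists had a marker called lower, nor did the 7 choroid plexus and ependymal markers have any call. The median log2 fold change was 0.29 over the indirect-pathway, 0.11 over the direct-pathway and 0.35 over the cortical neuron markers. The indirect-pathway markers of Q140 x Msh3-/- mice summed to 1490 to 1950 CPM, above the 1030 to 1260 CPM of Q140 mice. Cortical neuron markers summed to a median of 1020 CPM in Q140 x Msh3-/-, 792 CPM in Q140 and 1040 CPM in WT mice. Direct-pathway markers summed to medians of 794, 680 and 831 CPM in the same order. In Q140 x Msh3-/- minus WT the median log2 fold change was 0.62 over the cortical neuron markers, with 0 called. It was -0.15 over the indirect-pathway and 0.09 over the direct-pathway markers there. In Q140 x Msh3-/- minus Msh3-/- these medians were 0.43 (1 cortical neuron marker called higher), -0.13 and 0.02. The part of these shifts in the receptor values was not tested.

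Genes with the most similar profile were found by Pearson's r of log2 CPM over the 48 libraries, which share the genotype differences, so r is given as a description. Adora2a was most like Adcy5 (r = 0.981), Ppp1r1b (0.979) and Syndig1l (0.970), and with genotype and sex removed these were 0.826, 0.822 and 0.829. Gpr6 was most like Fbxl16 (0.967), Shank3 (0.960) and Bcr (0.954), and Mas1 like Adcy5 (0.950), Gsg1l (0.949) and Scn4b (0.949). For Mas1 these fell to between 0.383 and 0.446 with genotype and sex removed. Gpr83 was most like Hrk (0.923), Slc4a11 (0.921) and Il2rb (0.920).

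Gpr149 was most like Greb1l (0.844), Dpp10 (0.838) and Fam126a (0.817). Adora1 was most like Pbx2 (0.778), Gpr12 (0.775) and Mchr1 (0.772). Gpr3 was most like Midn (0.806), Rnd3 (0.793) and Dusp6 (0.790), and kept 0.828, 0.779 and 0.829 with genotype and sex removed. Adora2b had no gene above 0.514. Among the receptors themselves Adora2a and Gpr6 had r = 0.936, and 0.442 with genotype and sex removed, while Gpr6 and Mas1 went from 0.892 to 0.02. Gpr83 and Gpr149 went from -0.327 to 0.514.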

How the data were processed

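The authors deposited a table of raw counts per gene and a table of FPKM values for 48 striatal libraries. STAR 2.7.5c, SAMtools 1.10, HTSeq 0.12.3 and the build GRCm38 (mm10) are named in the submitters' processing notes; no annotation release, strand setting or filter is given there. The library kit was Illumina TruSeq stranded by the labels' protocols. The deposited FPKM values equalled the counts times a constant per gene over the library total (largest relative deviation 8.6e-08 over 16336 genes), so they were used for levels between genes and as an alternative. Each library is 1 mouse by the labels.

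Genes passing edgeR's filterByExpr by genotype (minimum count 10) were tested, 19714 of them, with 29081 left out. edgeR 4.0.16 in R 4.3.3 was used with TMM scaling and the quasi-likelihood F-test, in 1 fit of all 48 libraries with genotype and sex as terms (41 residual degrees of freedom). Log2 fold changes are fitted, SE is the fold change over the root of the F statistic, and Benjamini-Hochberg adjustment ran over the 19714 genes, with a threshold of 0.05. The sex difference of the Q140 effect came from a fit whose terms were the combinations of genotype and sex. The script was tested on simulated data. Alternatives used DESeq2 1.42.0, limma 3.58.1 on log2(FPKM + 0.1) and log2(FPKM + 1), total-count scaling, no filter, each sex alone, a replicate block, a plate column term, fewer libraries or only the genotypes compared. Coordinates are from GENCODE M21, in which 48349 of 48795 identifiers were found, and promoters from RefSeq (GRCm38.p6).

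Named genes are the members, up to 4 called genes of each list with the largest change in Q140 minus WT (mean log2 CPM not under 1), and the 3 most similar genes per member; 1 gene under this rule is not reported here. Gpr12, Adora3, Nt5e, Adk, Slc29a1, Acpp, Pde4d and Prkar1b were named outside this rule, after their values were seen. The members and lists were chosen with earlier results of these data known. The check of the replicate numbers (sex and number in the titles) found 7 of 120 same-numbered pairs with a correlation of residuals over 0.1 and a mean of -0.0137, so the numbers were not taken to pair mice.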

Additional observations from a re-analysis of the deposited data

Results flagged for a closer look

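In Q140 x Msh3+/- mice the highest Mas1 value, 4.25 CPM in the female mouse with replicate number 4, stood apart from the other 7 mice by Dixon's test. It was the 1 such value among 48 groups (8 receptors in 6 genotypes). By chance about 1 group in 20 passes this test, so 1 among 48 is no more than chance alone would give.

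The Q140 effect differed between mice with both Msh3 alleles and mice with none by the interaction test for 5 receptors. The differences on the log2 scale were 1.35 for Mas1, 0.66 for Gpr83, 0.63 for Adora2a, 0.51 for Gpr6 and 0.2 for Adora1. The Adora1 value was past the threshold in 7 of 12 alternatives, and that of Adora2a in 11 of 12, all but males alone.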

How the results depend on the processing

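Over all alternatives and comparisons, 1161 log2 fold changes of single receptors kept their side of the threshold, 36 were no longer past it, 3 were newly past it, and none past it changed sign. The number of receptors called moved by more than 1.5 times in these cases. In Q140 x Msh3+/- minus Q140 it was 4 with all libraries, 2 in females, 0 in males and 2 without the 4 libraries of another name prefix. In Q140 x Msh3-/- minus Q140 x Msh3+/- it was 4, with 1 in females and 2 in males. In Q140 x Msh3-/- minus Msh3-/- it was 4, with 0 in females, and in Q140 x Msh3-/- minus WT 4, with 1 in females. The interaction with loss of both alleles had 5, with 3 in males. The sexes alone hold 4 mice a group, and causes beyond that were not tested. Omission of the 4 libraries apart on the leading residual component was added after the data had been seen.

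With the replicate block (sex and number of the title) the receptors called were 6 in Q140 minus WT, 5 and 4 in the crosses with Msh3-/- and Msh3+/- minus Q140, and 5 in the interaction, as without it, and no other count of receptors changed. Genes called in Q140 minus WT went from 6506 to 6526.

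Counts over all genes moved more with the sexes alone: in Q140 minus WT from 6506 to 3925 in females and 3144 in males, in Q140 x Msh3-/- minus Q140 from 3217 to 1648 and 518, in Q140 x Msh3-/- minus Q140 x Msh3+/- from 637 to 127 and 84, in Q140 x Msh3-/- minus Msh3-/- from 1549 to 208 and 373, in Q140 x Msh3+/- minus Msh3+/- from 4247 to 1622 and 2218, in Q140 x Msh3-/- minus WT from 1239 to 158 and 466, and in the interaction from 1213 to 489 and 114. In Q140 x Msh3+/- minus Q140 the 260 calls became 1 in males, 422 with a plate column term and 154 without the 4 libraries apart. Limma on log2(FPKM + 0.1) gave 1870 and on log2(FPKM + 1) 1865 in Q140 x Msh3-/- minus WT. The 3 calls of the interaction with loss of 1 allele became 36 in DESeq2, 10 and 12 in limma, 10 with a plate column term, 5 with total counts and 0 in males, and DESeq2 called 5 genes in Msh3+/- minus WT in place of 2, where each sex alone and the 2 genotypes alone gave 1. Msh3-/- minus WT had 9 and in females 5, and limma on log2(FPKM + 1) called 2 genes for the sex difference of the Q140 effect in place of 0.

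Total-count scaling changed the split of higher and lower calls from 1725 and 1492 to 1283 and 2869 in Q140 x Msh3-/- minus Q140, from 452 and 185 to 252 and 679 in Q140 x Msh3-/- minus Q140 x Msh3+/-, from 791 and 758 to 1252 and 623 in Q140 x Msh3-/- minus Msh3-/-, from 2120 and 2127 to 4507 and 1351 in Q140 x Msh3+/- minus Msh3+/-, from 574 and 665 to 1364 and 486 in Q140 x Msh3-/- minus WT, from 806 and 407 to 537 and 1194 in the interaction with loss of both alleles, and from 325 and 514 to 687 and 281 between the sexes. Counting depth limits Mas1, Gpr3 and Adora2b most: their lowest counts in a library were 62, 127 and 73.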
